A study of Mus musculus with 14 samples.

Results

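Dorsal root ganglia of 5xFAD mice were compared with those of wild-type (WT) mice in 8 of the 14 RNA-seq libraries of a study on the p75 neurotrophin receptor, sensory nerves and bone. The members are the 4 libraries titled as wild type, genotype WT, and the 4 whose genotype label reads 5xFAD-MUTANT, each numbered 1 to 4. The other 6 libraries concern a floxed p75 allele and were counted in a table of their own. The labels give no treatment, age or sex, and no number of animals per library. Whether each replicate was a different animal is unstated, so p-values here reflect only how much these libraries vary, which may be technical. Gene counts as deposited summed to between 13907070 and 19837836 per library.

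The 5xFAD line is a transgenic model of familial Alzheimer's disease whose transgenes, mutant human amyloid precursor protein (APP) among them, are driven by the neuronal Thy1 promoter. A dorsal root ganglion holds the cell bodies of sensory neurons, each wrapped by satellite glia, with Schwann cells along the axons and with vessels, fibroblasts and macrophages between them. Transgene expression in this line is driven in neurons, while RNA of a whole ganglion would come from all of these cells.

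The tissue label was checked against defining markers. The labels name a sensory neuron cell type, and the extraction protocol is worded for cultured cells as well as tissue, so whether ganglia were cultured before extraction is not known. Per kilobase of exon, the neuronal tubulin Tubb3 had a median of 175 CPM (read counts relative to the library's scaled total) and Sox10, which marks Schwann cells and satellite glia, 152. The neuronal nuclear protein gene Rbfox3 was low, at 0.558 to 4.38 CPM. Markers of endothelium (Pecam1, 152 to 379 CPM) and fibroblasts (Col1a1, 287 to 1076 CPM) were present in every library, as were the cell division genes Mki67 (241 to 456 CPM) and Top2a (247 to 395 CPM). The oligodendrocyte gene Mog had 0 counts in every library and the muscle gene Ckm at most 3, and the Y-linked gene Ddx3y lay between 133 and 141 CPM in all 8 libraries. The RNA therefore held neuronal and glial transcripts together with those of vessels, connective tissue and dividing cells, and the labelled cell type was not the only one present.

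Replicates 1 and 2 stood apart from replicates 3 and 4 in both genotypes. With genotype in the model, 3169 of 16725 tested genes (18.9%) differed between these 2 sets of libraries, and the labels give no name to the difference. Unless another fit is named, log2 differences and p-values of genes below come from a model with a term for it. The mitochondrial share was tested without that term, and values within each set are given for some results only.

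App, the mouse gene for the amyloid precursor protein, was read at 1302, 1153, 1405 and 1340.2 CPM in wild-type replicates 1 to 4 and at 1376, 1341, 1483 and 1535 CPM in 5xFAD replicates 1 to 4. The groups overlapped, and the log2 difference, 5xFAD against wild type, was 0.14 with a standard error (SE) of 0.05 (edgeR quasi-likelihood test, Benjamini-Hochberg adjusted p = 0.0861). Thy1, a surface glycoprotein gene of neurons, was at 38.4 ± 12.8 CPM in wild type and 70.3 ± 25.6 CPM in 5xFAD (SD, n = 4 each), a log2 difference of 0.82 with SE 0.25 (adjusted p = 0.112). How reads of the human transgenes were assigned is not stated in the labels, so App and Thy1 do not check the genotype labels.

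Across the transcriptome, 1878 of 16725 tested genes (11.2%) passed an adjusted p of 0.05 in edgeR's quasi-likelihood test, and are referred to as called. Of these, 1181 rose in 5xFAD ganglia (7.06% of genes tested) and 697 fell (4.17%). The median absolute log2 difference of the called genes was 0.47, and 425 of them changed more than 2-fold, 348 upward and 77 downward. The median over all tested genes was 0.00. Every 5xFAD library lay above every wild-type library for 1074 tested genes (6.42%) and below for 744 (4.45%). The number of called genes depended most on 5xFAD replicates 1 and 2: it was 1079 without the former and 1211 without the latter. Without 5xFAD replicate 1 the higher calls numbered 759 and the lower calls 320, and the lower calls were 395, 426 and 443 without 5xFAD replicate 2, 5xFAD replicate 4 and wild-type replicate 2.

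**Figure D1:**
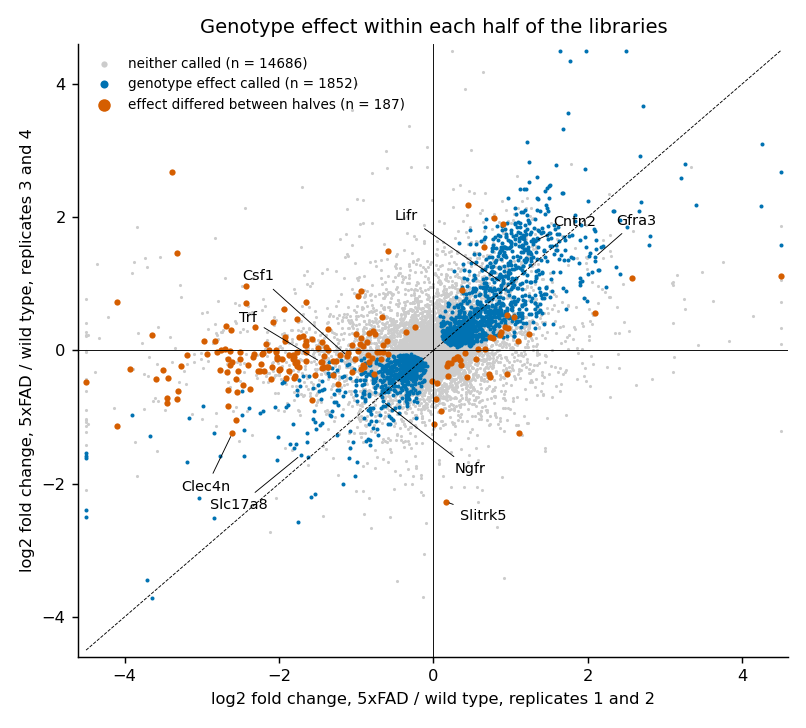
Log2 fold change of each tested gene, 5xFAD over wild type, in replicates 1 and 2 (horizontal axis) and in replicates 3 and 4 (vertical axis); each point is a gene, and points beyond an axis are drawn at its edge. Called genes (blue) lie in the lower left and upper right, and the 187 genes whose effect differed between the sets of replicates (orange) lie mostly to the left of the vertical zero line with little change on the vertical axis.

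Among the genes with the smallest p were receptors for growth factors and cytokines. Genes named for a small p or a large change were picked among called genes already separate within each set of replicates. Separate groups in such genes, here and below, are part of how they were chosen and not added support. Ngfr, which encodes the p75 neurotrophin receptor, was read at 717, 654, 658 and 638 CPM in the wild-type libraries and at 423, 453, 404 and 360.5 CPM in the 5xFAD libraries. All 4 5xFAD values lay below all wild-type values, and the log2 difference was -0.70 (SE 0.05, adjusted p = 3.08e-06). Gfra1, the co-receptor through which GDNF engages Ret, fell from 189 ± 31.5 to 119 ± 22.4 CPM (SD, n = 4 each; log2 difference -0.68, SE 0.04, adjusted p = 1.27e-06). Lifr, the receptor for leukaemia inhibitory factor, stood at 47.4, 51.4, 42.9 and 48.1 CPM in wild type and at 96.3, 89.6, 86.6 and 96.3 CPM in 5xFAD. Its groups did not overlap, and it rose by 0.96 on the log2 scale (SE 0.06, adjusted p = 9.26e-07). Aldh1a1, an enzyme that makes retinoic acid, rose from 26.5 ± 6.39 to 50.3 ± 9.79 CPM (SD, n = 4 each; log2 difference 0.93, SE 0.07, adjusted p = 3.08e-06). These 4 genes stayed called whichever library was left out. With no term for the replicate sets Gfra1 lost its call, while Ngfr, Lifr and Aldh1a1 kept theirs.

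Slc17a8, the vesicular glutamate transporter VGLUT3, was among the decreases with the smallest p. It had 18, 19.9, 15.4 and 11.5 CPM in wild type and 5.04, 6.53, 5.32 and 3.78 CPM in 5xFAD. The groups were separate (log2 difference -1.64, SE 0.15, adjusted p = 1.14e-05). Of the 12 largest decreases by fold, 5 stayed called in every leave-one-out fit: Erdr1 (log2 difference -2.16), the aldehyde dehydrogenase gene Aldh3a1 (-2.11), Clec4n, which encodes the myeloid lectin receptor Dectin-2 (-1.86), Tnfsf18, the ligand of GITR (-1.85), and the chloride channel family gene Clic6 (-1.83). Aldh3a1 lost its call with no term for the replicate sets, and Tnfsf18 in replicates 3 and 4 alone. The other 7 of the 12 lost their call in 2 to 7 of the 8 leave-one-out fits. Among them Ptgs1, cyclooxygenase 1, fell by 1.80 on the log2 scale, but its adjusted p of 0.0188 rose to 0.058 without 5xFAD replicate 2, and its call was also lost without 5xFAD replicate 1. The largest increases by fold were in genes at low level. The sodium chloride cotransporter gene Slc12a3 had 0, 0, 0.281 and 0.203 CPM in wild type and 0.59, 0.783, 0.729 and 2.35 CPM in 5xFAD, so its fitted log2 difference of 3.22 rests on few reads. Sfrp5, a secreted Wnt antagonist, went from 3.11 ± 2.4 to 13.8 ± 9.55 CPM and the nerve injury gene Sprr1a from 6.76 ± 0.915 to 28.2 ± 9.67 CPM (SD, n = 4 each), with log2 differences of 2.18 (adjusted p = 8.9e-05) and 2.03 (adjusted p = 0.000475).

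**Figure D2:**
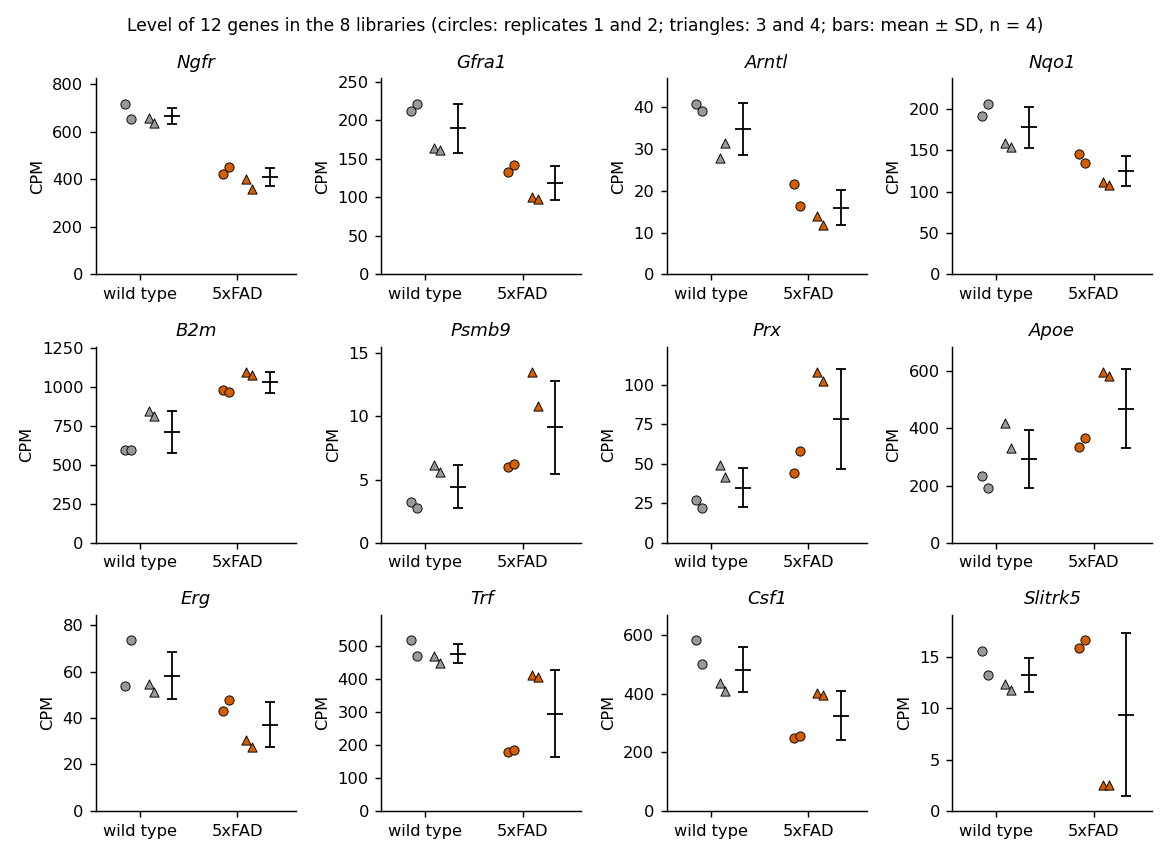
CPM of 12 genes in the 8 libraries, wild type in grey and 5xFAD in orange, with circles for replicates 1 and 2, triangles for replicates 3 and 4, and bars for the mean and SD (n = 4). Ngfr, Gfra1 and Arntl are lower in all 4 5xFAD libraries, whereas Trf and Csf1 are low mainly in 5xFAD replicates 1 and 2 and Slitrk5 in 5xFAD replicates 3 and 4.

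Class I major histocompatibility (MHC) genes and their peptide supply were higher in 5xFAD ganglia. Class I molecules display peptides cut by the proteasome, pumped into the endoplasmic reticulum by Tap1 and Tap2 and loaded with the help of Tapbp, and this display is induced by interferons. Of 17 tested members, 13 rose and 0 fell (76.5%, against 7.06% of all genes), with a median log2 difference of 0.45 beside 0.00 for all genes tested. This list and those below were chosen with earlier results of these data known, so their shares are descriptions and not tests. For each list, the shares of all genes to set beside its calls were 7.06% higher and 4.17% lower. In replicates 1 and 2 alone they were 6.17% and 6.3%, and in replicates 3 and 4 alone 3.38% and 1.25%. B2m, the invariant light chain, was read at 592, 593, 843 and 815 CPM in wild type and at 980.4, 965, 1094 and 1079 CPM in 5xFAD. Each 5xFAD library exceeded every wild-type library, by a log2 difference of 0.55 (SE 0.06, adjusted p = 4.27e-05). The heavy chain genes H2-D1 and H2-K1 each rose by 0.45 (adjusted p = 6.62e-05 and 0.000138), although reads of these near-identical genes may be split among them. The immunoproteasome subunits Psmb9 (1.03), Psmb8 (0.75) and Psmb10 (0.49) also rose, and were the 3 higher calls among 47 proteasome genes, of which 3 fell and the median was -0.00. Between 11 and 12 class I members were called when a library was left out, 8 against 1.2-fold and 3 with no term for the replicate sets. In those last 2 fits 477 and 402 of all 16725 genes were called higher. Higher calls numbered 10 in replicates 1 and 2 alone and 7 in replicates 3 and 4 alone, where 6.17% and 3.38% of all genes were.

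**Figure D3:**
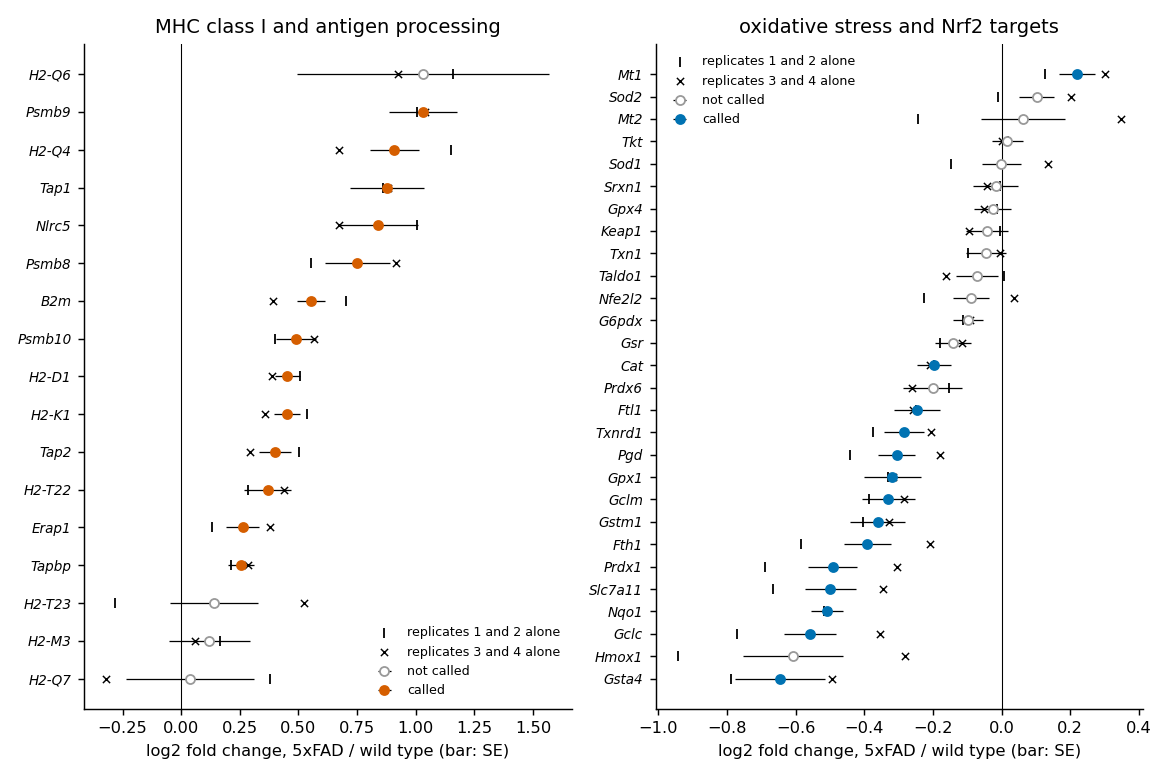
Log2 fold change (5xFAD over wild type, bar: SE) of the class I antigen presentation genes, left, and of the oxidative stress and Nrf2 target genes, right; filled points were called, open points were not, and ticks and crosses give replicates 1 and 2 and replicates 3 and 4 alone. All 17 genes on the left lie above 0, and 24 of 28 genes on the right lie below 0.

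The summed level of the class I list was 1459, 1509, 1926 and 1986 CPM in wild-type replicates 1 to 4 and 2245, 2275, 2737 and 2492 CPM in 5xFAD replicates 1 to 4. The groups did not overlap, and replicates 3 and 4 were the higher ones in both genotypes. Macrophages also carry class I molecules. The sum of 17 tested macrophage markers was 453, 467, 620.0 and 514 CPM in wild type and 155, 103, 526 and 411 CPM in 5xFAD, lowest in the 5xFAD libraries 1 and 2, and its part in the class I values was not tested.

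Interferon-stimulated genes, which cells switch on through STAT and IRF factors, had the higher median but the less uniform calls. Of 29 tested, 28 lay above 0 with a median log2 difference of 0.69, yet 6 were called, all higher. Their summed level was 725, 702, 956 and 948 CPM in wild type and 927, 955, 2203 and 1193 CPM in 5xFAD, and 5xFAD replicate 3 stood far above the rest. Without that library 17 were called, and without 5xFAD replicate 4, 16. The count was 3 without 5xFAD replicate 1, 5xFAD replicate 2 or wild-type replicate 1 and 2 without wild-type replicate 2. In replicates 1 and 2 alone 16 members were called higher, against 6.17% of all genes there, and in replicates 3 and 4 alone edgeR called 0, against 3.38%, with 2 at an unadjusted p under 0.05. Irf1, a transcription factor of the response (log2 difference 0.31, adjusted p = 0.00497), and Ifit2 (0.22, adjusted p = 0.00616) stayed called whichever library was left out. Gbp2, a guanylate-binding protein gene, was at 43, 36.6, 81.6 and 72.1 CPM in wild type and 71, 72.7, 177 and 115 CPM in 5xFAD, overlapping groups with a log2 difference of 0.89 (adjusted p = 0.0105) whose call was lost without wild-type replicate 2 (adjusted p = 0.0545). MHC class II genes, 5 tested, had a median of -0.09 and 0 calls by edgeR, DESeq2 or limma-voom, with 0 at an unadjusted p under 0.05.

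Promoter windows of the RefSeq mouse annotation, build GRCm38.p6, from 250 bases before to 50 after the gene start, were searched on both strands for the interferon-stimulated response element, GAAA and a second GAAA with any 2 bases between. It was found for 3.99% of 27025 genes, for 13 of 23 interferon-stimulated genes with a window (56.5%) and for 3 of 11 called class I genes, B2m among them. The windows of B2m (chr2:122147437-122147736, plus strand) and Gbp2 (chr3:142620413-142620712, plus strand) are shown because both genes are described above; capitals mark the match, which lies on the minus strand in Gbp2.
B2m: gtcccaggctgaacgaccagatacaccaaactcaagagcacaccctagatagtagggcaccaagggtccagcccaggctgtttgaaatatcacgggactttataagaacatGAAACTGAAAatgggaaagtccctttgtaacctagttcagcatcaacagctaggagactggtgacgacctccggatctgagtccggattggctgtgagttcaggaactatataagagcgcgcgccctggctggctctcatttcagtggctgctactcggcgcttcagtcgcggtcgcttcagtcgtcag
Gbp2: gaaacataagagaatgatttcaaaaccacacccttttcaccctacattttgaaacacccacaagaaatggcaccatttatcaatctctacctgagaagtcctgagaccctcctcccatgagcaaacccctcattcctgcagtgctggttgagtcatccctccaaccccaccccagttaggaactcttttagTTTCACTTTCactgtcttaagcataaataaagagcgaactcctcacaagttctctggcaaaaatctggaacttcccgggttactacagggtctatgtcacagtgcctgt
A match is a description of these letters and was not tested as a binding site.

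Genes of the antioxidant response were lower. Nrf2 is the transcription factor that induces glutathione synthesis, quinone reduction and peroxide removal when cells meet oxidants. Of 28 tested genes of this list, 13 fell and 1 rose, with a median log2 difference of -0.20. The shares were 46.4% lower and 3.57% higher, against 4.17% and 7.06% of all genes. With no term for the replicate sets 1 was called lower, where 164 of all 16725 genes were. Against 1.2-fold 4 were called lower, where 126 of all genes were. Nqo1, a quinone reductase, was read at 191, 206, 159 and 155 CPM in wild type and at 145, 134, 112 and 109 CPM in 5xFAD. The groups did not overlap (log2 difference -0.51, SE 0.05, adjusted p = 1.16e-05). Gclc, the catalytic subunit of the rate-limiting enzyme of glutathione synthesis, fell by 0.56 (SE 0.08, adjusted p = 0.000674), and by more in replicates 1 and 2 (0.77) than in replicates 3 and 4 (0.36), an interaction of 0.41 (SE 0.09, adjusted p = 0.0428). Prdx1, a peroxiredoxin that removes hydrogen peroxide, was read at 1737, 1881, 1101 and 1161 CPM in wild type and at 1174, 1089, 923 and 908 CPM in 5xFAD. Its groups overlapped across the 8 libraries but not within replicates 1 and 2 or within replicates 3 and 4 (log2 difference -0.49, SE 0.07, adjusted p = 0.000693). Slc7a11, which imports cystine for glutathione, fell by 0.50 (adjusted p = 0.00112). The count of lower calls was 8 without 5xFAD replicate 1, 14 in replicates 1 and 2 alone and 3 in replicates 3 and 4 alone, where 6.3% and 1.25% of all genes were called lower, and the single higher call was lost without 5xFAD replicate 4 or wild-type replicate 3.

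The antioxidant response element core TGACNNNGC, bound by Nrf2, was found in the promoter windows of 14.0% of 27025 genes and of 9 of 23 list genes with a window (39.1%), including 4 of the 11 that fell, Gclm, Txnrd1, Pgd and Prdx1. The window of Prdx1 (chr4:116685349-116685648, plus strand, GRCm38.p6) is shown because the gene fell and holds a match; capitals mark it, on the minus strand.
Prdx1: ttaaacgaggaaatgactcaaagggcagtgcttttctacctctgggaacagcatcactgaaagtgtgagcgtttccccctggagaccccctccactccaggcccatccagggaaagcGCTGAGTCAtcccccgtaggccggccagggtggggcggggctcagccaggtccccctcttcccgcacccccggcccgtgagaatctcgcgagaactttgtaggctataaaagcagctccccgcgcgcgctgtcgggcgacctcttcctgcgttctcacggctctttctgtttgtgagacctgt
No statement on Nrf2 binding follows from the match.

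Iron storage and transport genes were also lower. Of 17 tested iron and haem genes, 6 fell and 0 rose, with a median log2 difference of -0.25. With no term for the replicate sets 3 were called lower, and against 1.2-fold 1 was. Fth1, the ferritin heavy chain, was read at 3598, 3938, 2807 and 2819 CPM in wild type and at 2518, 2551, 2369.8 and 2495 CPM in 5xFAD. All 5xFAD libraries lay below all wild-type libraries (log2 difference -0.39, SE 0.07, adjusted p = 0.00222). Slc40a1, the iron exporter ferroportin (-0.73), Steap3, a ferrireductase (-0.40), and Alas1, the first enzyme of haem synthesis (-0.34), fell too and stayed called in every leave-one-out fit. In replicates 1 and 2 alone 10 members were lower and in replicates 3 and 4 alone edgeR called 0, with 6 lower at an unadjusted p under 0.05; of all genes, 6.3% and 1.25% were called lower there. Slc40a1 is also a macrophage gene, and the part of the lower macrophage marker level in its value was not tested.

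Schwann cell myelin genes were higher. Myelin in peripheral nerve is built from P0, P2, PMP22 and myelin basic protein, with periaxin (Prx) and Mag organising the sheath around the axon. Of 17 tested, 10 rose and 0 fell, with a median log2 difference of 0.64. Pmp22 was read at 481, 406, 907 and 881 CPM in wild type and at 821, 813, 1281 and 1386 CPM in 5xFAD. The groups overlapped over all libraries because replicates 3 and 4 were higher in both genotypes, and were separate within each set of replicates (log2 difference 0.73, SE 0.07, adjusted p = 3.94e-05). Prx rose by 1.14 (SE 0.10, adjusted p = 3.94e-05) and Mag from 2 ± 0.835 to 6.43 ± 3.4 CPM (SD, n = 4 each; 1.65, adjusted p = 0.000202). Mbp, the myelin basic protein gene, had a log2 difference of 0.84 and an adjusted p of 0.0458 that was lost in 6 of the 8 leave-one-out fits, reaching 0.111 without 5xFAD replicate 2. The number of myelin genes called was 6 without 5xFAD replicate 1 and 0 in a model without the term for the replicate sets. In bulk RNA, more Schwann cells and more myelin RNA per cell cannot be told apart, and likewise fewer cells of a type and less RNA per cell for the cell types below.

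The list of immature and repair Schwann cell genes split. Of 18 tested, 5 rose and 6 fell, with a median of 0.06, and Ngfr and Gfra1 were among those that fell. Runx2, a transcription factor, had 72.6, 66.4, 79.9 and 69.1 CPM in wild type and 50.4, 48.7, 49.1 and 48.2 CPM in 5xFAD, separate groups (log2 difference -0.55, SE 0.06, adjusted p = 4.63e-05). Shh, a ligand that repair Schwann cells secrete, fell by 1.49 (SE 0.29, adjusted p = 0.0058). The 5 higher calls were 1 without 5xFAD replicate 1 or 2, 2 without 5xFAD replicate 4 and 3 without wild-type replicate 1 or 3, while the lower calls numbered between 5 and 7. Of 10 satellite glia genes, 3 rose and 2 fell, with a median of 0.07. Apoe, which carries lipids between cells, rose from 294 ± 101 to 469.9 ± 139 CPM (SD, n = 4 each; log2 difference 0.69, SE 0.08, adjusted p = 0.0004).

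Endothelial genes were lower. Of 16 tested, 8 fell and 0 rose, with a median log2 difference of -0.40. With no term for the replicate sets edgeR called 0 of the 16 lower, and against 1.2-fold 1. The summed level was 1556, 2029, 1336 and 1518 CPM in wild type and 1430.2, 1519, 918 and 865 CPM in 5xFAD, so the groups overlapped. The effect was called as different between the sets of replicates for 0 of the 16 genes by edgeR, DESeq2 or limma-voom, with 4 at an unadjusted p under 0.05 by edgeR. Erg, a transcription factor that maintains endothelial identity, was read at 53.7, 73.4, 54.9 and 51.1 CPM in wild type and at 43, 47.7, 30.6 and 27.5 CPM in 5xFAD. Its groups did not overlap (log2 difference -0.67, SE 0.12, adjusted p = 0.00568). The angiopoietin receptor family genes Tie1 (-0.40, adjusted p = 0.00715) and Tek (-0.42, adjusted p = 0.00871) fell as well. The number of lower calls was 13 without wild-type replicate 1, 5 without 5xFAD replicate 3, 5xFAD replicate 4 or wild-type replicate 3, 4 without 5xFAD replicate 1 and 3 without wild-type replicate 2, the library with the highest sum. Of 23 gap and tight junction genes, 5 fell and 0 rose, among them Gja1, which encodes connexin 43 and is also a satellite glia gene (-0.59, adjusted p = 0.00832), and the claudin gene Cldn15 (-1.29, adjusted p = 0.00195); 3 were called without 5xFAD replicate 1 or 2. Mural cells, the pericytes and smooth muscle around vessels, had 1 lower call of 12 and a median of 0.00.

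Macrophage genes differed between the sets of replicates. In replicates 1 and 2 the median log2 difference of 17 tested macrophage and myeloid genes was -1.75 and 12 were called lower, whereas in replicates 3 and 4 the median was -0.19 and 1 was; the shares of all genes called lower were 6.3% and 1.25%. The interaction of genotype and replicate set was called for 6 of the 17, against 1.12% of all genes tested. Mrc1, the mannose receptor of tissue macrophages, was read at 9.66, 9.27, 18 and 17.8 CPM in wild type and at 3.97, 3.08, 15.2 and 14.8 CPM in 5xFAD. The 2 low libraries were 5xFAD replicates 1 and 2, and the interaction was 1.17 on the log2 scale (SE 0.23, adjusted p = 0.0202). In the model over all 8 libraries 3 members were called lower, 6 without wild-type replicate 4, 1 without wild-type replicate 1, wild-type replicate 2 or 5xFAD replicate 1, and 0 without 5xFAD replicate 2. Fibroblast genes showed medians of -0.76 and 0.18 in the 2 sets, with 3 of 15 called for the interaction. Of 20 genes known from amyloid-associated microglia in brain, 3 rose and 2 fell, and 10 were lower in replicates 1 and 2 alone. Most lay lower: 16 were below 0 and 4 above, with a median log2 difference of -0.42, and 6 were called for the interaction. Their summed level was 15200 to 18308 CPM in wild type and 12198 to 14225 CPM in 5xFAD. The macrophage markers summed to only 453 to 620 CPM in wild type, so this sum is no measure of myeloid cells. Which cells it came from was not tested. Apoe and B2m, described above, were 2 of the 3 that rose. The lower calls of that list were 1 without 5xFAD replicate 1, 5xFAD replicate 2, wild-type replicate 1 or wild-type replicate 2.

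**Figure D4:**
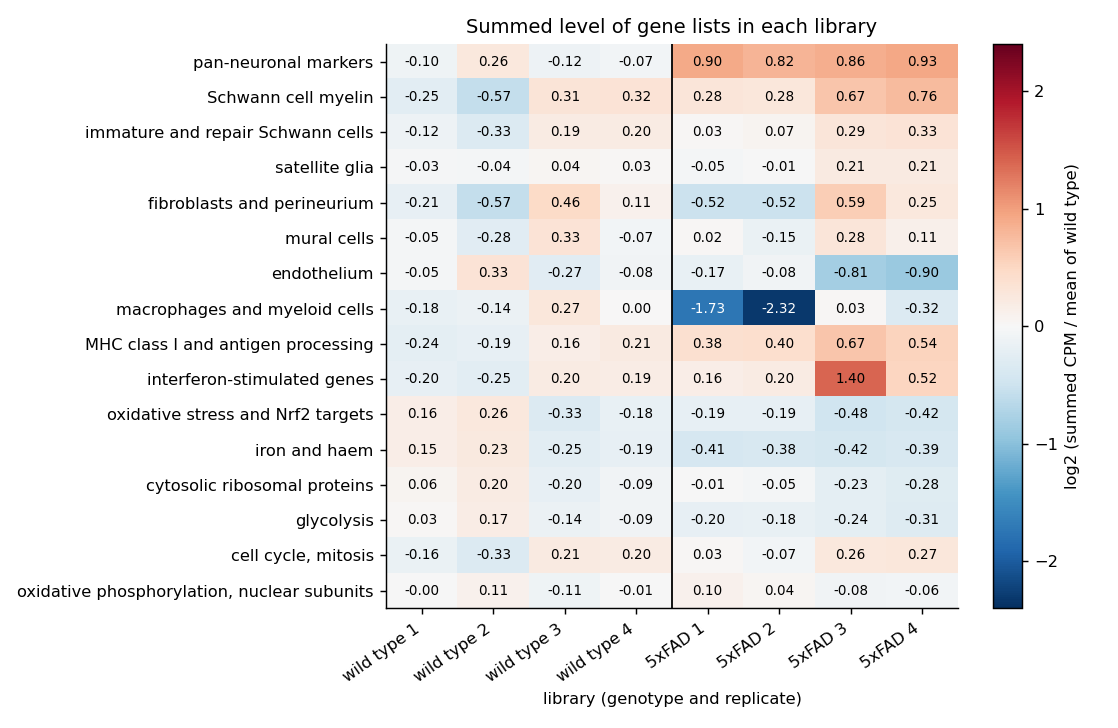
Summed CPM of 16 gene lists in each library, as log2 of the ratio to the wild-type mean; colours run from blue (lower) to red (higher) and the value stands in each cell. Macrophage genes are at -1.73 and -2.32 in 5xFAD replicates 1 and 2, endothelial genes at -0.81 and -0.90 in 5xFAD replicates 3 and 4, and interferon-stimulated genes at 1.40 in 5xFAD replicate 3.

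Genes whose genotype effect differed between the sets of replicates numbered 187 (1.12% of 16725). In 145 of them 5xFAD was lower in replicates 1 and 2, and 95 had a log2 difference below -1 there and within 0.5 of 0 in replicates 3 and 4. Trf, which encodes the iron carrier transferrin, was read at 516, 468, 469.8 and 449 CPM in wild type and at 177, 183, 410.4 and 405 CPM in 5xFAD. Its log2 difference was -1.46 in replicates 1 and 2 and -0.17 in replicates 3 and 4, an interaction of 1.28 (SE 0.09, adjusted p = 2.41e-06). Csf1, the growth factor on which macrophages depend, was at 582, 502, 438 and 409 CPM in wild type and 248, 257, 404 and 395 CPM in 5xFAD, with an interaction of 1.02 (SE 0.10, adjusted p = 6.43e-05). Xdh, xanthine dehydrogenase, showed the same order (interaction 1.13, adjusted p = 6.32e-05). In the opposite direction, Slitrk5, a neuronal adhesion receptor gene, was at 15.9 and 16.6 CPM in 5xFAD replicates 1 and 2 and at 2.48 and 2.52 CPM in 5xFAD replicates 3 and 4, beside 11.8 to 15.6 CPM in wild type (interaction -2.44, SE 0.24, adjusted p = 6.32e-05). The number of such genes ranged from 64 to 308 when a library was left out: it was 64, 80 and 87 without 5xFAD replicates 2, 1 and 3, 124 without wild-type replicate 4 and 308 without wild-type replicate 3.

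Genes of electrical signalling and of axonal contact rose across many families. Pan-neuronal markers moved with them: 12 of 13 tested rose, and their sum was 604 to 783 CPM in wild type and 1157 to 1253 CPM in 5xFAD, so the part of neuronal RNA content in the families below was not tested. Of 66 tested potassium channel genes 20 rose and 1 fell, with a median of 0.39; the lower calls were 2 without 5xFAD replicate 3 or 4 or wild-type replicate 1 and 3 without wild-type replicate 4. Kcnab2, a beta subunit of voltage-gated channels, was read at 18.8, 18.5, 16.5 and 17 CPM in wild type and at 32.2, 29.6, 30.6 and 32.5 CPM in 5xFAD. The groups were far apart (log2 difference 0.82, SE 0.08, adjusted p = 1.39e-05). Of 26 ligand-gated transmitter receptor genes 12 rose and 0 fell (median 0.66), including the glycine receptor subunit Glrb (0.98). Of 13 sodium channel genes 5 rose, led by the nociceptor channel Scn10a (14.1 ± 1.47 to 36.1 ± 3.44 CPM, SD, n = 4 each; 1.36, adjusted p = 2.77e-06); 3 were called without 5xFAD replicate 1, 2 or 4 and 2 without wild-type replicate 3. Of 35 TRP, Piezo, acid-sensing and purine channel genes 6 rose and 0 fell, including the capsaicin receptor Trpv1 (1.74) and the ATP receptor P2rx3 (1.27), with a median of 0.05.

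Axonal and synaptic adhesion genes had 18 higher calls and 1 lower among 35, with a median log2 difference of 0.41; the lower call was lost without 5xFAD replicates 1 or 4 or wild-type replicates 1, 2 or 3. Cntn2, which encodes contactin 2 of axons and myelinating glia, was read at 4.07, 5.83, 4.49 and 5.22 CPM in wild type and at 10.4, 14.3, 14.5 and 15.9 CPM in 5xFAD. All 5xFAD libraries lay above all wild-type libraries (1.49, SE 0.16, adjusted p = 3.15e-05). Ncam1, which binds axons to one another and to glia, rose too (0.67, adjusted p = 0.000457). Regulators and subunits of G proteins had 13 higher calls and 0 lower among 45 (median 0.06), Rab GTPases of vesicle transport 12 and 0 among 56 (median 0.06), and synaptotagmins, SNAREs and complexins 15 and 3 among 51 (median 0.13), where the 3 lower calls were 1 without 5xFAD replicate 1 or 2. These proteins fuse and sort the vesicles that carry transmitter and membrane. Of 30 tubulin and microtubule genes 12 rose and 0 fell, 7 without 5xFAD replicate 1, 2 or 4. Mapt, the gene for tau, was read at 11.3, 11, 12.6 and 13.6 CPM in wild type and at 24.7, 23.4, 28.9 and 33.7 CPM in 5xFAD, separate groups (1.19, SE 0.09, adjusted p = 3.08e-06).

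Among 27 genes of the amyloid precursor family, its proteases and partners, 7 rose and 0 fell, with a median log2 difference of 0.07. Apba1, an adaptor that binds the tail of the precursor protein, was read at 19, 19, 22.3 and 18.4 CPM in wild type and at 33.1, 33.6, 35.5 and 37 CPM in 5xFAD. Its groups were separate (0.82, SE 0.08, adjusted p = 1.29e-05). The precursor-like gene Aplp1 rose from 15.5 ± 1.86 to 25.3 ± 4.32 CPM (SD, n = 4 each; 0.70, adjusted p = 0.000201), while App, as given above, was not called. Apba1, Aplp1 and Mapt are expressed chiefly in neurons, whose markers moved with them. Complement genes had 4 higher calls and 0 lower among 18 by edgeR, DESeq2 or limma-voom (1 lower at an unadjusted p under 0.05 by edgeR), and a median of 0.01 that joins opposite signs, -0.37 in replicates 1 and 2 and 0.27 in replicates 3 and 4. In replicates 1 and 2 alone 3 were called higher and 5 lower, in replicates 3 and 4 alone 2 higher and 0 lower (0 lower also at an unadjusted p under 0.05), and the interaction was called for 2; without 5xFAD replicate 3 the model over both sets called 2 lower. The protease gene C1ra (0.74, adjusted p = 0.000899) and the inhibitor Cd59a (0.35, adjusted p = 0.000567) stayed called throughout, and C4b went from 64.4, 44.6, 139 and 132 CPM to 199.5, 221, 276 and 282 CPM, separate groups (1.48, SE 0.23, adjusted p = 0.0173) whose call was lost without 5xFAD replicate 1 or wild-type replicate 1 (adjusted p = 0.0598 for the latter).

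Guidance and matrix genes moved in both directions. Of 30 semaphorins and plexins, which steer axons and shape vessels, 9 fell and 8 rose (median -0.11). Sema3a, the repellent of sensory axons, was read at 13.7, 10.3, 12.2 and 10.4 CPM in wild type and at 4.83, 5.27, 7.15 and 6.14 CPM in 5xFAD. The groups were separate (-1.01, SE 0.15, adjusted p = 0.000501), and Plxna2, a co-receptor for class 3 semaphorins, fell by 0.39 (adjusted p = 0.000202). Without 5xFAD replicate 1 the lower calls were 4 and the higher 3, and without 5xFAD replicate 2 the higher were 5. Of 36 laminin and integrin genes 10 rose and 4 fell (median 0.11). Itga4, a receptor for fibronectin and VCAM1 (0.66, adjusted p = 0.000178), Itga6, the laminin receptor of Schwann cells (0.41, adjusted p = 0.000358), and Lamb1, a laminin chain (0.38, adjusted p = 0.000702), rose; the lower calls were 2 without 5xFAD replicate 1, 2 or 4 or wild-type replicate 2 or 3. Of 37 collagens 7 rose and 2 fell (median 0.13). Col16a1, a fibril-associated collagen gene, was at 230.2, 168, 482 and 417 CPM in wild type and 344, 335, 719.8 and 613 CPM in 5xFAD, overlapping groups with higher values in replicates 3 and 4 of both genotypes (0.67, SE 0.11, adjusted p = 0.0093). The higher collagen calls were 3 without 5xFAD replicate 1 and 4 without 5xFAD replicate 2, and the lower 1 without 5xFAD replicate 1 or 4 or wild-type replicates 1, 2 or 3.

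**Figure D5:**
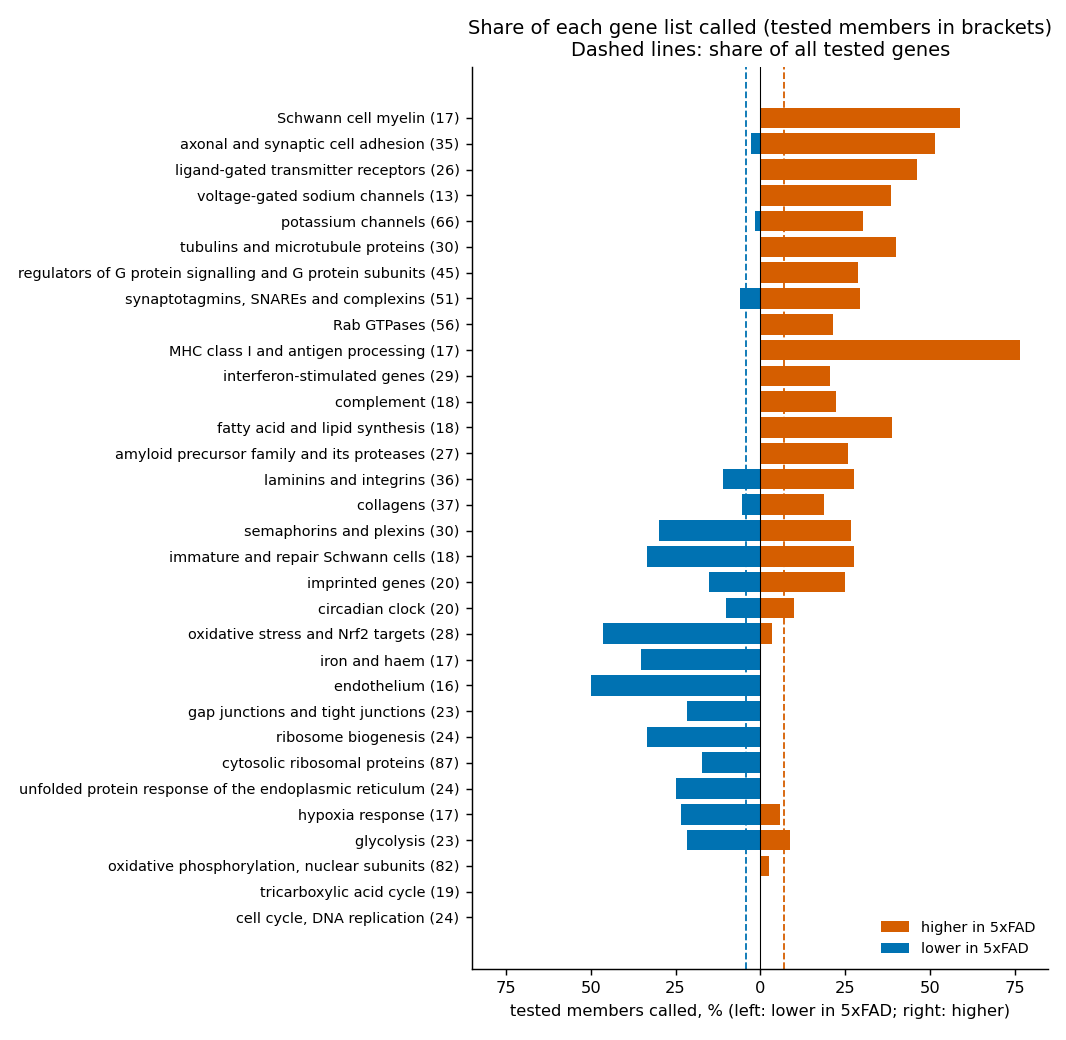
Share of tested members of 32 gene lists called higher (orange, right) or lower (blue, left) in 5xFAD, with the number tested in brackets; dashed lines give the share of all tested genes, 7.06% higher and 4.17% lower. Class I, myelin and axonal adhesion genes stand furthest to the right, and endothelial, Nrf2 and iron genes furthest to the left.

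Genes for making protein were slightly lower. Of 87 cytosolic ribosomal protein genes 86 had a log2 difference below 0, with a median of -0.15. The lower calls were 15 (17.2%, against 4.17% of all genes) and the higher calls 0. Reads of these genes may be shared with processed copies. Rpl13a was read at 201, 221, 172 and 182 CPM in wild type and at 173, 177, 151 and 140.4 CPM in 5xFAD, overlapping over all libraries and separate within each set (-0.28, SE 0.05, adjusted p = 0.00163). The number called was 2 without 5xFAD replicate 1 or 2, 3 without 5xFAD replicate 4 or wild-type replicate 2 and 9 without wild-type replicate 4. All 24 ribosome biogenesis genes lay below 0 (median -0.17), and 8 were called lower (33.3%), 4 without 5xFAD replicate 1 or 2. Nop58, a core protein of the small nucleolar particles that methylate ribosomal RNA, fell by 0.27 (SE 0.05, adjusted p = 0.0038). With no term for the replicate sets, or against 1.2-fold, edgeR called 0 genes of either list lower. In those fits 164 and 126 of all 16725 genes were called lower. Of each list, 12 genes were called lower in replicates 1 and 2 alone, where 6.3% of all genes were. In replicates 3 and 4 alone 1 ribosomal protein gene was, against 1.25% of all genes. There edgeR called 0 biogenesis genes, with 4 lower at an unadjusted p under 0.05. Scaled by DESeq2's size factors the median of the ribosomal protein genes was -0.16 and that of biogenesis genes -0.17, and by the upper quartile -0.15 and -0.16, where the median of all genes was -0.0042 and 0.0040.

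Stress and energy pathways showed smaller counts. Of 24 unfolded protein response genes 6 fell and 0 rose (median -0.14), 10 without wild-type replicate 4, 3 without 5xFAD replicate 1, 5xFAD replicate 2 or wild-type replicate 3, and 2 without 5xFAD replicate 4 or wild-type replicate 1 or 2. In replicates 1 and 2 alone 7 were called lower and in replicates 3 and 4 alone edgeR called 0, with 3 lower at an unadjusted p under 0.05. Of all genes, 6.3% and 1.25% were called lower there. Pdia6, a disulfide isomerase of the endoplasmic reticulum, fell by 0.29 (adjusted p = 0.00822) and stayed called throughout. Of 17 hypoxia response genes 4 fell and 1 rose (median -0.07). Hif1a, the oxygen-sensitive transcription factor itself, was read at 168, 176, 170.0 and 156 CPM in wild type and at 125, 134, 151 and 141 CPM in 5xFAD, separate groups (-0.28, SE 0.06, adjusted p = 0.00572), and the vasodilator peptide gene Adm fell by 0.45 (adjusted p = 0.00532). The single higher hypoxia call was lost without 5xFAD replicate 1 or 2 or wild-type replicate 1 or 2, and the higher calls were 2 without wild-type replicate 4. Of 23 glycolytic genes 5 fell and 2 rose (median -0.14). Pkm, pyruvate kinase, was read at 1212, 1468, 1043 and 1064 CPM in wild type and at 838, 904, 776 and 701 CPM in 5xFAD, separate groups (-0.57, SE 0.06, adjusted p = 4.71e-05). The lower glycolytic calls were 9 without 5xFAD replicate 3 and 3 without 5xFAD replicate 1, 5xFAD replicate 2 or wild-type replicate 2. They were 8 in replicates 1 and 2 alone and 1 in replicates 3 and 4 alone, against 6.3% and 1.25% of all genes.

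Respiratory genes of the nucleus had 2 higher calls of 82, 0 lower and a median of 0.02, and the 19 tricarboxylic acid cycle genes had 0 calls by edgeR, DESeq2 or limma-voom, with 1 lower at an unadjusted p under 0.05. The 13 protein-coding mitochondrial genes took 3.43 ± 0.113% of counts in wild type and 3.67 ± 0.245% in 5xFAD (SD, n = 4 each). The difference of 0.243 percentage points did not pass a two-sided exact permutation test (p = 0.171, where 0.0286 is the smallest p that 70 splits allow). That test took no account of the replicate sets. Of 18 lipid synthesis genes 7 rose and 0 fell (median 0.10). The higher calls were 4 without 5xFAD replicate 2, 6 in replicates 1 and 2 alone, 1 in replicates 3 and 4 alone and 1 with no term for the sets, and a test against 1.2-fold by edgeR called 0, with 1 higher at an unadjusted p under 0.05. Gpam, the first enzyme of glycerolipid synthesis (0.40, adjusted p = 0.000471), and the fatty acid desaturase Fads1 (0.28, adjusted p = 0.0044) were among them. DNA replication genes had 0 calls among 24 by edgeR, DESeq2 or limma-voom, with 4 higher at an unadjusted p under 0.05, and of 24 mitosis genes 2 rose and 0 fell.

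Of 20 circadian clock genes, 2 fell and 2 rose, with a median of -0.01. Arntl, the gene for the clock activator BMAL1, was read at 40.7, 39, 27.7 and 31.3 CPM in wild type and at 21.5, 16.4, 13.9 and 11.8 CPM in 5xFAD. Every 5xFAD library was below every wild-type library (-1.13, SE 0.10, adjusted p = 6.98e-06). Clock, the gene of its partner protein, was the other that fell, and is named here because of its value: it had 113 ± 7.54 CPM in wild type and 63.9 ± 14.1 CPM in 5xFAD (SD, n = 4 each; -0.83, adjusted p = 0.0121). Bhlhe40, a repressor in the loop, rose by 0.25 (adjusted p = 0.00425), and Nr1d1, which encodes the Arntl repressor REV-ERB alpha, rose by 0.28 (adjusted p = 0.02). Without wild-type replicate 2 the calls of the list were 1 lower and 1 higher, and the higher calls were also 1 without 5xFAD replicate 2 or 4. The labels give no time of day at which ganglia were taken.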

How the data were processed

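Total RNA was sequenced, and the authors deposited a table of raw counts per gene with no normalisation, which holds whole numbers. The submitters' processing notes name the build GRCm39; for the aligner, the counter, multiply matching reads and strand, the setting is not given in the sources used here. Near-identical copies and overlapping genes are therefore uncertain. Counting error is small at 13907070 to 19837836 counts per library, and none of the 4 pairs of libraries compared (same genotype and replicate set) agreed within it.

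Of 56691 listed genes, 16725 passed edgeR's filterByExpr. The 4 wild-type and 4 5xFAD libraries were fitted with edgeR 4.0.16 in R 4.3.3 (TMM scaling, robust quasi-likelihood test, a term for replicates 1 and 2 against 3 and 4, Benjamini-Hochberg adjustment over all genes tested, threshold 0.05); a model with the interaction tested whether the effect differed between those sets. SE is the log2 difference over the root of its F value. CPM are counts on the usual scale of TMM-adjusted library totals. DESeq2 1.42.0 and limma 3.58.1 were alternatives, with other scalings, filters, no replicate set term, a replicate block, each set alone, a test against 1.2-fold and each library left out. Counts were also simulated from the means and dispersions of these libraries, with changed genes drawn from those at a mean of at least 5 CPM. Of genes changed 2-fold between genotypes 99% were called, and 23 of 16525 unchanged genes were. For the interaction the values were 77% and 27. The simulated counts follow the fitted model, so they do not measure variation between animals or recovery of genes at lower level.

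Members and the 96 gene lists were chosen with earlier results of these data known. Named genes are Ngfr, App and Thy1; called genes separate within each set with the 12 largest changes (at least 1 CPM in a group, predicted genes left out) or 8 smallest p in each direction; up to 4 genes of each list with at least 4 tested and 3 called; the 5 most abundant called in each direction; and the 5 smallest interaction p. The text describes part of the 294 genes so named, and a few others are not reported here. Promoters come from RefSeq, build GRCm38.p6, used by symbol and not joined to the counts by position. A second table, of the floxed p75 comparison, was not used here.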

Additional observations from a re-analysis of the deposited data

Results flagged for a closer look

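The genotype effect differed between replicates 1 and 2 and replicates 3 and 4 for 187 genes by the interaction test. As log2 of the effect in replicates 3 and 4 minus that in replicates 1 and 2, the named genes among them were Trf at 1.28, Csf1 at 1.02, Xdh at 1.13, Ptgs1 at 1.50, Clec4n at 1.35, Mrc1 at 1.17, Gclc at 0.41, Gpr158, an orphan receptor gene that rose more in replicates 3 and 4, at 1.198, the predicted gene Gm42047 at -1.15 and Slitrk5 at -2.44. Macrophage marker sums of 155 and 103 CPM in 5xFAD replicates 1 and 2, against 411 to 526 CPM in 5xFAD replicates 3 and 4, moved with the myeloid genes Clec4n and Mrc1, and their part in these values was not tested.

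A sample far from the other 3 of its group was found for 21 of 590 groups of named genes, where chance flags about 1 in 20. In 5xFAD replicate 3, Zbp1, an interferon-induced sensor of Z-form nucleic acids, stood at 34.8 CPM, Adgrd1 at 6.86 CPM and Spry1 at 16.7 CPM above the others, and Rab39b at 12.98 CPM below them. In wild-type replicate 2, Erg (73.4 CPM), Aplp1 (18.3 CPM), Camk2a (5.34 CPM), Kif5a (52.1 CPM), Sema7a (159 CPM) and Ret (33.7 CPM) stood above the others. In wild-type replicate 3, Shh (10.2 CPM), Sytl3 (0.393 CPM) and Apba1 (22.3 CPM) stood above and Rbm15b (71.8 CPM) and Gna14 (3.25 CPM) below. Fosl2 was high in wild-type replicate 1 (493.7 CPM). In 5xFAD replicate 1, Chchd3 (70.2 CPM) and Prph (188 CPM) were high and Icam1 (22.5 CPM) low. Gna14 was low in 5xFAD replicate 2 (8.67 CPM) and Slc12a3 high in 5xFAD replicate 4 (2.35 CPM).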

How the results depend on the processing

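DESeq2's size factors (1904 called), upper-quartile scaling (1861), DESeq2 (2009), limma-voom (1857) and a filter at a mean of 5 CPM (1536) kept the count within 1.5 times of 1878. Without a filter 1524 rose and 1089 fell of 30222 genes. With no term for the replicate sets 566 were called (402 higher, 164 lower), and against 1.2-fold 603 (477 and 126). In replicates 1 and 2 alone 2085 were called (1032 higher, 1053 lower), so higher calls did not outnumber lower ones there. In replicates 3 and 4 alone 775 were called (566 and 209). Leaving out a library gave 1079 to 2028 calls, 759 to 1206 higher and 320 to 826 lower, and 64 to 308 interaction calls; the interaction count was 525 with no filter and 269 with DESeq2. The mitochondrial share difference ranged from 0.160 to 0.351 points, the latter without 5xFAD replicate 3 (exact permutation p = 0.0286, the smallest that 35 splits allow). Of 287 called named genes, 211 stayed called in every leave-one-out fit. Other settings cost more calls: 169 of the 287 were lost with no term for the replicate sets. Against 1.2-fold 134 were lost, in replicates 3 and 4 alone 125, and in replicates 1 and 2 alone 58. Gm42047 changed sign in replicates 3 and 4 alone (-0.41) and Slitrk5 in replicates 1 and 2 alone (0.16); neither was called for genotype. The cause was not tested. With a replicate block in place of the set term 1615 were called (1039 higher, 576 lower); deviations of same-numbered libraries correlated across genes at 0.107, 0.245, 0.339 and 0.053, and wild-type replicate 2 correlated best with 5xFAD replicate 1 (0.261), so the numbers were not taken as pairs. The 4 libraries a group limit precision; depth does not limit abundant genes.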

Other observations

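Several groups not described above held genes with clear differences. Of 20 imprinted genes, expressed from the copy of a single parent, 5 rose and 3 fell (median 0.11). Snrpn, a maternally silenced splicing protein gene, was read at 32, 37.7, 36.8 and 34.2 CPM in wild type and at 51.9, 55.1, 53.2 and 58.9 CPM in 5xFAD. The groups were separate (edgeR log2 difference 0.64, SE 0.07, adjusted p = 3.16e-05), and the maternally expressed non-coding RNA Meg3 rose by 0.99 (adjusted p = 0.000856). The higher calls were 3 without 5xFAD replicate 1, and the lower were 1 without 5xFAD replicate 1, 2 or 4 or wild-type replicate 1 or 3. Of 24 retinoid and steroid genes 4 rose, Aldh1a1, the retinaldehyde reductase Dhrs3 (0.59), the retinoic acid binding protein Crabp1 (0.65) and the glucocorticoid target Tsc22d3 (0.23), and all 4 stayed called whichever library was left out. The retinoic acid binding protein gene Crabp2 fell (-0.95, adjusted p = 0.00821), the single lower call, named here because of its value; the lower calls were 3 without 5xFAD replicate 3, 2 without wild-type replicate 1, 4 without wild-type replicate 4, 7 in replicates 1 and 2 alone and 2 in replicates 3 and 4 alone.

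Of 28 matrix proteoglycan and glycoprotein genes 3 rose and 2 fell; without wild-type replicate 1 the counts were 6 and 1, and the lower calls were 4 without 5xFAD replicate 3 and 1 without 5xFAD replicate 1 or 4 or wild-type replicate 3. Bcan, the proteoglycan brevican of brain matrix, went from 6.37 ± 0.864 to 17 ± 7.59 CPM (SD, n = 4 each; log2 difference 1.33, adjusted p = 8.08e-05) and Tnr, tenascin R, from 1.46 ± 0.532 to 4.93 ± 0.723 CPM (1.78, adjusted p = 0.000207). Fbln5, an elastic fibre gene, rose by 0.76 (adjusted p = 0.00036). Of 27 genes of growth factor feedback 4 fell and 1 rose (median -0.07), with 2 higher calls without wild-type replicate 4. Dusp5, a nuclear phosphatase of ERK, had 15.4, 17.6, 11.8 and 13.1 CPM in wild type and 9.44, 8.35, 8.02 and 7.86 CPM in 5xFAD, separate groups (-0.77, SE 0.11, adjusted p = 0.000448). The YAP target Ccn2 fell by 0.50 (adjusted p = 3.62e-05) among 18 such genes, of which 3 fell and 2 rose; the higher calls were 1 without any single 5xFAD library or wild-type replicate 2. Of 25 genes of BMP and TGF-beta receptors, Smads and targets 5 fell and 3 rose, the lower calls being 3 without 5xFAD replicate 1, 2 or 4 or wild-type replicate 1, 2 or 3; the targets Id2 (-0.51, adjusted p = 0.000854) and Id1 (-0.36, adjusted p = 0.0124) fell.

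Other families had calls in both directions. Of 258 solute carriers 29 rose and 20 fell, of 84 cadherins and protocadherins 13 and 5, of 54 metalloproteinases and inhibitors 8 and 6, and of 29 receptor tyrosine kinases and neurotrophin receptors 5 and 4. The solute carriers called higher were 16 without 5xFAD replicate 1 or 2, 18 without 5xFAD replicate 4 and 17 without wild-type replicate 1 or 3, and those called lower 10 and 13 without 5xFAD replicates 1 and 2. Without 5xFAD replicate 1 the cadherins were 6 and 3 and the receptors called higher 3. The higher metalloproteinase calls were 5 without 5xFAD replicate 2; the lower ones were 3 without it, 2 without wild-type replicate 2, 1 without 5xFAD replicate 4 or wild-type replicate 1 and, by edgeR, 0 without 5xFAD replicate 1 or wild-type replicate 3, where 9 and 11 were lower at an unadjusted p under 0.05. Among those that rose were Cdh1, which encodes E-cadherin (4.55 ± 1.12 to 11.9 ± 0.524 CPM, SD, n = 4 each; 1.40, adjusted p = 3.15e-05), Adam23 (0.54, adjusted p = 3.16e-05) and Ret, the receptor of GDNF family ligands (1.26, adjusted p = 8.41e-05). Calls were mostly higher for kinesins and dyneins (7 higher and 2 lower of 57), septins and spectrins (8 and 1 of 21), intermediate filaments (5 and 0 of 15), ion pumps (7 and 1 of 23), calcium channels (4 and 0 of 17), chloride channels (4 and 1 of 19), calcium and protein C kinases (7 and 1 of 26), transmitter GPCRs (6 and 1 of 33) and adhesion and orphan GPCRs (7 and 1 of 60). Of all genes 7.06% were called higher and 4.17% lower. The higher kinase calls were 2 without 5xFAD replicate 1 or 4 or wild-type replicate 1, and the higher chloride channel calls 1 without wild-type replicate 3. Prkce, a protein kinase C of nociceptors, rose by 0.92 (adjusted p = 1.22e-05) and Gabbr2, a GABA-B receptor subunit, by 1.62 (adjusted p = 1.52e-05). Calls were mostly lower for Hox genes (0 higher and 4 lower of 30), chaperones (0 and 4 of 25), Wnt receptors and targets (0 and 3 of 27) and immediate early genes (1 and 3 of 25). Hox genes had 7 lower calls in replicates 1 and 2 alone and 1 without 5xFAD replicate 1 or 2. By edgeR 0 Hox genes and 0 chaperones were called in replicates 3 and 4 alone, with 4 of each lower at an unadjusted p under 0.05. Without 5xFAD replicate 1 edgeR called 0 chaperones, with 7 lower at an unadjusted p under 0.05. The lower Wnt calls were 1 without 5xFAD replicate 1 or 4 or wild-type replicate 2 or 4.

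Of 109 splicing factors 0 rose and 3 fell, a share of 2.75% beside 4.17% of all genes. The rest had calls in both directions: zinc finger genes (7 higher and 6 lower of 357), translation factors (4 and 5 of 64), actin and myosin genes (3 and 5 of 41), copines, clathrin and adaptors (4 and 3 of 55), cyclases and phosphodiesterases (4 and 3 of 27), Sox and Fox factors (4 and 2 of 40), mitochondrial import and dynamics (4 and 1 of 24), p53 targets (3 and 3 of 22), mitochondrial ribosome (2 and 1 of 78), NF-kB targets (1 and 2 of 18) and the Hedgehog pathway (1 and 2 of 13). Zinc finger genes (1.96% higher, 1.68% lower) and the mitochondrial ribosome (2.56% and 1.28%) lay under the shares of all genes, 7.06% and 4.17%. By edgeR 0 translation factors were called lower without 5xFAD replicate 1 or 2, with 11 and 7 lower at an unadjusted p under 0.05. The other 22 lists with at least 4 tested genes had under 3 calls each, and 5 lists had under 4 tested genes. Counts moved with single libraries: of the 69 lists with 3 or more calls, a count moved by over 1.5 times in 47, 39, 15 and 35 without 5xFAD replicates 1 to 4 and in 28, 28, 25 and 18 without wild-type replicates 1 to 4. Calls over all genes moved as well, from 1878 to 1079, 1211, 2028 and 1276 without 5xFAD replicates 1 to 4. Without wild-type replicates 1 to 4 they were 1598, 1406, 1423 and 1975. How far the list counts followed these totals was not tested.

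The smallest p of all genes belonged to Gm6969, a predicted gene that the naming rule leaves out and that is named here after its values were seen. It had 32.7, 38.1, 32.3 and 31.9 CPM in wild type and 2.9, 2.77, 2.19 and 2.64 CPM in 5xFAD, a log2 difference of -3.68 (SE 0.11, adjusted p = 3.45e-11) that was alike in both sets of replicates (-3.65 and -3.72). By annotation class, 1144 of 14033 protein-coding genes rose and 660 fell, 29 of 1489 long non-coding RNA genes rose and 19 fell, and 5 of 969 pseudogenes rose and 15 fell.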
